A study of Mus musculus with 62 samples.

Results

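Transcripts of 43 enzymes that break down amino acids were followed in mouse liver. The members were taken by gene symbol, with no threshold on measured values, and all 43 were found among the 47643 symbols of the deposited table. They cover tyrosine (4 members), tryptophan (6), histidine (4), proline and ornithine (3), serine, alanine and the transaminases (7), glycine (3), lysine (1), the sulfur amino acids (2), the branched-chain amino acids (12) and phosphoethanolamine (1). All 43 passed the filter on low values, at least 1 TPM (transcripts per length, scaled to the same total in each library) in at least 5 libraries.

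The study sequenced polyadenylated RNA from livers of female mice, 2 months old, that had been given melanoma cells that cause cachexia (CAC), melanoma cells that do not (NCAC) or a mock injection (Con). Cachexia is the wasting of muscle and fat that accompanies some tumours. Livers were taken at 2, 4, 6 and 8 weeks, with 5 libraries in each arm and week and 7 for CAC at 8 weeks, 62 in all. The labels give the strain as C57BL/6J, the design text of the series names NCI Ath/nude mice, and the sources used here do not name the cell lines. Con mice carried no tumour of any kind, so CAC was also set against NCAC. The labels call the libraries biological replicates. The deposited values are TPM, so the number of reads behind each library is unknown. In whole liver, fewer cells of a type and less RNA per cell cannot be told apart.

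The liver is the main site at which most amino acids are stripped of their nitrogen, and their carbon skeletons are passed to glucose, ketone bodies or the citric acid cycle. Each route starts with an enzyme that commits the amino acid, such as tyrosine aminotransferase or tryptophan dioxygenase, and several of these are known to respond to glucocorticoids, glucagon, feeding and the time of day. The branched-chain amino acids are an exception, since their first transamination takes place mostly in muscle and the liver oxidises the resulting keto acids.

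In the 20 Con libraries the most abundant members by median were Hpd (2440 TPM), which acts on the keto acid of tyrosine, the cysteine dioxygenase Cdo1 (1640 TPM) and Tat (1090 TPM). The least abundant were Mccc1 (10 TPM), Acmsd (11.6 TPM) and Sdsl (12.2 TPM). Members also differed in how steady they were without a tumour. Tat ranged 7.92-fold between the lowest and highest Con library and Csad, which makes the taurine precursor hypotaurine, 7.14-fold. Bckdhb and Got2 ranged 1.31-fold and 1.32-fold. The lowest Tat was in Con replicate 2 of 8 weeks and the highest Csad in Con replicate 5 of 6 weeks. Both libraries held transcripts of pancreas or muscle, as described below.

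The libraries were liver by their markers. The sum of 8 hepatocyte transcripts had group medians from 119200 to 158500 TPM, and of 5 melanoma markers Mlana and Tyrp1 were at 0 in each of the 62 libraries and Tyr at no more than 0.0122 TPM. Pmel and Dct were above 0 in every library, Con included, with Dct at 4 to 13.4 TPM in Con and up to 23.8 TPM in NCAC and 22.4 TPM in CAC, and their part in the results was not tested. Transcripts of exocrine pancreas or skeletal muscle (at least 100 TPM of Ctrb1 or 10 TPM of Acta1) were present in 12 libraries, among them Con replicates 2 and 4 and NCAC replicates 1 and 5 at 8 weeks and none of CAC at 8 weeks. The tests were repeated without these 12 libraries. Levels of clock genes also differed between groups at 8 weeks. Nr1d1, a circadian repressor, was at 78.9, 70.2, 75.5, 66.0 and 13.7 TPM in Con, and in CAC it lay between 0.872 and 51.4 TPM with a median of 9.74.

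Differences are given as log2(TPM + 1) with ± 1 standard error. Adjusted p-values come from a limma fit across 12160 genes, in which a gene was called at adjusted p under 0.05. TPM within a library always sum to the same total, so a change of some abundant transcripts moves the values of all others. In CAC at 8 weeks the median gene lay 0.21 below Con on the log2 scale as deposited (-0.21). Median-of-ratios rescaling removed this shift, and the tests were repeated on rescaled values. With the 20 genes of highest mean TPM removed instead, differences at 8 weeks were lower than as deposited. Hibch, for example, was at -0.49 in place of -0.32 and Tdo2 at 0.47 in place of 0.64. The source of the shift was not tested.

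At 8 weeks 7 members were called higher in CAC than in Con and 17 lower, where 5.87% of all genes tested were called higher and 35.3% lower. The 7 were Tat, Sds, Sdsl, Got1, Tdo2, Prodh and Aass. The median member differed by -0.25, near the -0.21 of all genes. After rescaling 11 members were called higher and 6 lower, against 12.8% and 13.9% of all genes. Hal, Gpt, Cdo1 and Kmo joined those called higher, and Hibadh, Pcca, Amt, Amdhd1, Etnppl and Aldh4a1 were those called lower. Without the 12 libraries with pancreas or muscle transcripts, 4 were called higher as deposited (Tat, Sds, Sdsl and Prodh) and 15 lower. The shares of all genes called without these libraries are not given here. Counts without them, here and below, are therefore not set against all genes.

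The number of members called in CAC against Con grew with the weeks. At 2 weeks no member was called by the limma fit over all weeks (0.00822% of all genes called, 1 member higher and 7 lower at an unadjusted p under 0.05). The CAC livers of 2 weeks lay below every Con liver for 6 members, Hpd, Dbt, Ivd, Mccc1, Mccc2 and Pcca, and above every Con liver for Bckdhb. The NCAC livers of 2 weeks lay below every Con liver for Hgd, Hal, Amdhd1, Gldc and Amt. How many of all genes were apart in this way was not counted. A limma fit within the week called 4 members in CAC at 2 weeks, all lower. These were Oat (-0.84, adjusted p = 0.0401), Ivd (-0.25, adjusted p = 0.0361), Mccc1 (-0.39, adjusted p = 0.00961) and Pcca (-0.27, adjusted p = 0.0276). The share of all genes called in fits within the week was not counted. At 4 weeks 1 was called, Pcca (1.91% of all genes). At 6 weeks 2 members were called higher and 11 lower, against 5% and 10.3% of all genes. Sds and Sdsl were the 2 that rose. Without the libraries holding pancreas or muscle transcripts the counts at 6 weeks were 1 higher (Sdsl) and 4 lower (Hibadh, Acadsb, Pcca and Dbt), and without CAC replicate 1 the count of lower members was 4.

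No member was called in NCAC against Con at any week in the limma fit over all weeks. The fit within the week called Amdhd1 (-0.80, adjusted p = 0.0276) and Amt (-0.80, adjusted p = 0.035) lower at 2 weeks. At an unadjusted p under 0.05 the counts were 8 lower at 2 weeks, 2 lower at 4 weeks, 2 lower at 6 weeks and 4 higher at 8 weeks. The share of all genes under that threshold was not counted, for these or the other unadjusted counts. By adjusted p, 0% of all genes were called in NCAC against Con at 2, 4 and 6 weeks and 0.181% at 8 weeks. At 8 weeks the largest difference of a member was that of Got1 at 0.74 ± 0.38 (adjusted p = 0.469), and the smallest adjusted p that of Prodh at 0.0924.

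Between the tumour arms no member was called at 2 or 4 weeks in limma (0% and 1.27% of all genes called). At an unadjusted p under 0.05 there were 2 higher and 4 lower members at 2 weeks and 1 higher and 6 lower at 4 weeks. At 6 weeks Sds and Sdsl were called higher in CAC than in NCAC and Hibadh, Pcca, Acadsb, Mccc1 and Afmid lower (12.1% of all genes called). Of these, Mccc1 (-0.29, adjusted p = 0.0637) and Afmid (-0.35, adjusted p = 0.224) were not called without the 12 libraries. At 8 weeks 3 members, Tat, Sds and Sdsl, were higher and 19 lower, against 5.09% and 43.1% of all genes. After rescaling the counts at 8 weeks were 7 higher and 8 lower, against 12.3% and 13%. The comparisons with Con and with NCAC share the CAC libraries.

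**Figure D1:**
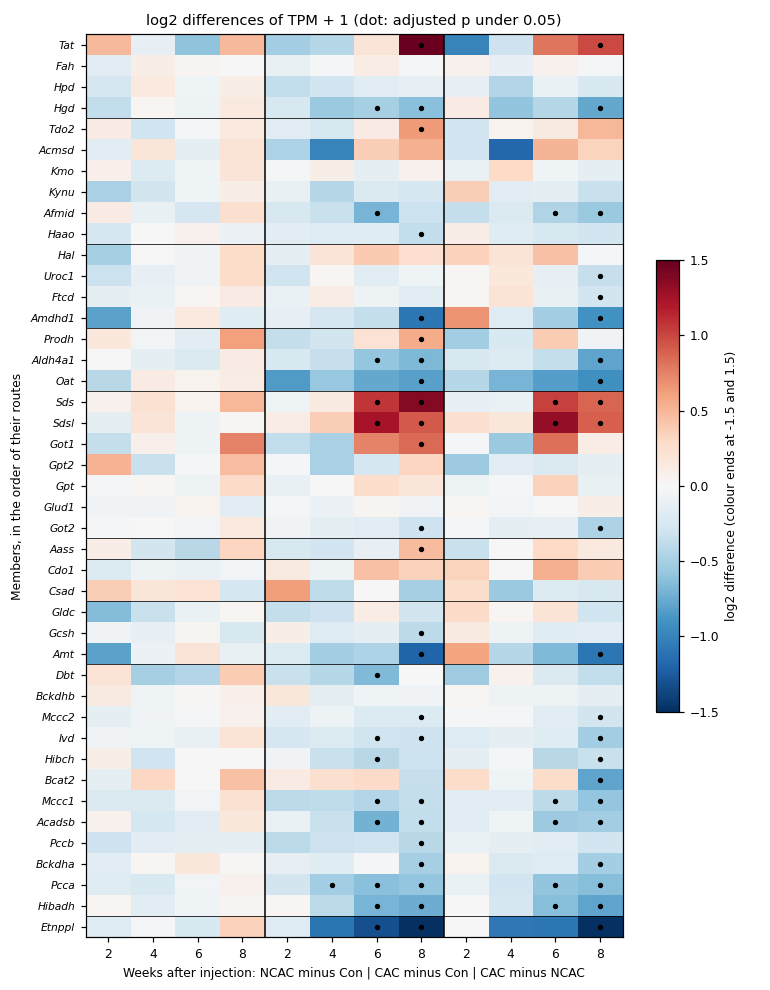
Map of the log2 difference of TPM + 1 for the 43 members, by route from tyrosine at the top to phosphoethanolamine at the bottom, in NCAC minus Con, CAC minus Con and CAC minus NCAC at 2, 4, 6 and 8 weeks. Dots mark adjusted p under 0.05: none lies in NCAC minus Con, and in CAC minus Con they number 0, 1, 13 and 24 from 2 to 8 weeks.

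Among the routes with more than 1 member, the serine, alanine and transaminase group had the highest median difference at 8 weeks, and the branched-chain members lay below Con with 1 exception, Dbt. Of the 7 in the first group 3 were called higher and 1 lower, with a median difference of 0.32. Of the 12 branched-chain members none was called higher and 8 lower, with a median of -0.35. The 10 members of the aromatic routes lay between these, with 2 higher, 2 lower and a median of -0.07. After rescaling the medians were 0.57, -0.12 and 0.18, and the counts of higher and lower members were 4 and 0, 0 and 2, and 3 and 0. Of all genes 5.87% were called higher and 35.3% lower as deposited, and 12.8% and 13.9% after rescaling.

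**Figure D2:**
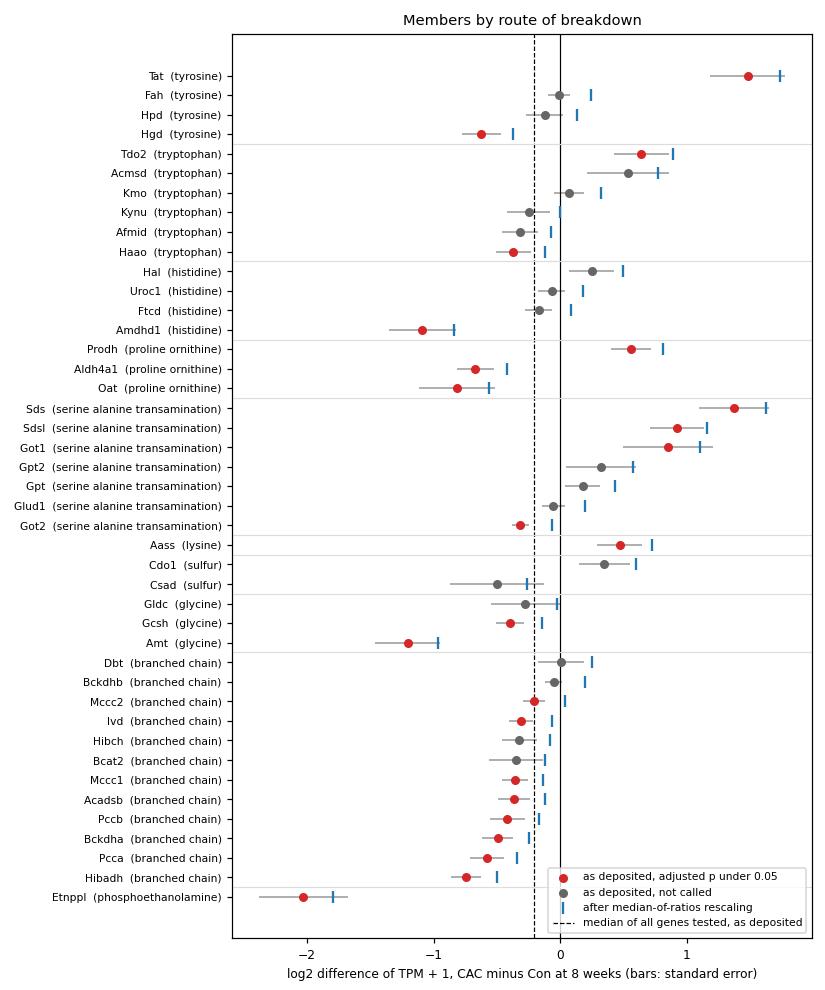
Log2 difference of TPM + 1 between CAC (7 libraries) and Con (5 libraries) at 8 weeks for each member, with its standard error, grouped by route. Red points passed adjusted p under 0.05, blue ticks give the value after median-of-ratios rescaling, and the dashed line is the median of all genes tested at -0.21, on which most branched-chain members fall or lie below.

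Start regions were printed for 4 members that moved in opposite directions, Tat and Aass upward and Amdhd1 and Oat downward, as the 250 bases before the RefSeq start on GRCm38.p6, the build named mm10 in the browser. RefSeq windows were found for 37 of the 43 members. Gpt, Sds, Sdsl, Dbt, Cdo1 and Kynu had no entry in the table. The windows are Tat at chr8:109990186-109990435 on the plus strand, and Aass at chr6:23132987-23133236, Amdhd1 at chr10:93540034-93540283 and Oat at chr7:132576399-132576648, all 3 on the minus strand. Each reads 5′ to 3′ toward the gene, and capitals mark a searched motif.
Tat: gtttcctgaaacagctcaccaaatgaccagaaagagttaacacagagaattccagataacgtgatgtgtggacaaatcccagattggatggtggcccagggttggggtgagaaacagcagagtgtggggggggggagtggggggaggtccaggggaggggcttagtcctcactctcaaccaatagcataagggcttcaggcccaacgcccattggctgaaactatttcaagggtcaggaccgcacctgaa
Aass: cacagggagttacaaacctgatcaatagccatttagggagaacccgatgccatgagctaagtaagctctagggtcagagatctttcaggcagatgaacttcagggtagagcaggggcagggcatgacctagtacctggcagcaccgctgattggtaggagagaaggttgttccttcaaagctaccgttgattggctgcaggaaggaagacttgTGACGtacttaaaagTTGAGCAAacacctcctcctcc
Amdhd1: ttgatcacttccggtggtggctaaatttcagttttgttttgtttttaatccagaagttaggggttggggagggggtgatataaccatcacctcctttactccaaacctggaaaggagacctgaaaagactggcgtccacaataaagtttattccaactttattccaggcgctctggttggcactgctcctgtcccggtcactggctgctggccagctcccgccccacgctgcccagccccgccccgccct
Oat: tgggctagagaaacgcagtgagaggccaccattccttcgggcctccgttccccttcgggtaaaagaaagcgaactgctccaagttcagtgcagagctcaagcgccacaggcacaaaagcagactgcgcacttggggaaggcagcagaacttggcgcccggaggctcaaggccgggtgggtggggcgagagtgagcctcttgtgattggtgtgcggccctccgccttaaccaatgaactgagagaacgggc
The motifs, searched on both strands, were GNACA and TGTNC spaced by 3 bases (glucocorticoid element), TGACGTCA (cAMP element), its core TGACG, TTGCNNAA (C/EBP), CACGTG (E-box) and TTATGTAA (D-box). The core TGACG also lies within TGACGTCA. In Aass the core TGACG began 37 bases and TTGCNNAA 22 bases before the start, and the windows of Tat, Amdhd1 and Oat held none of the 6. Over the 37 members TGACG was found in 6 (Aass, Acadsb, Acmsd, Csad, Ftcd and Pcca), TTGCNNAA in 4 (Aass, Acadsb, Hal and Hgd) and CACGTG in 1 (Mccc2). In 32851 mouse windows of this length the shares were 17.8%, 9.56% and 6.02%, counted per window and not per gene. The 37 members had 42 windows, of which 37 ran on into an annotated transcript of the gene. The match in Csad lay in a window that did not. The glucocorticoid element, TGACGTCA and TTATGTAA were in no member's window, and in 0.387%, 1.55% and 0.819% of all windows. These are matches of letters within 250 bases, with no measurement of binding.

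In the tyrosine route the first enzyme and a later one moved in opposite directions. Tat, the aminotransferase that commits tyrosine to breakdown (chromosome 8, 109990437 to 109999803 in GENCODE on GRCm38), was at 548, 361, 761, 870.4 and 1541 TPM in the 5 Con livers at 8 weeks. NCAC livers held 1116, 854, 1146, 814 and 1248 TPM. In the 7 CAC livers Tat ran from 1277 to 3643 TPM with a median of 1930. Every CAC liver lay above every NCAC liver, and Con replicate 5 alone reached into the CAC range. The increase over Con was 1.48 ± 0.30 (adjusted p = 8.48e-05) and that over NCAC 0.99 ± 0.30 (adjusted p = 0.0053), both by limma. The same Con replicate 5 had the lowest Nr1d1 of its group. With 2 clock scores in the fit the difference of Tat from Con was 0.88 (adjusted p = 0.00525).

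Further down the tyrosine route, Hgd (homogentisate dioxygenase) fell by 0.62 ± 0.16 (limma, adjusted p = 0.00124). It was at 426, 489, 523, 508 and 364 TPM in Con and between 197 and 465 TPM in CAC, median 282. The ranges overlapped through CAC replicate 3 alone. After rescaling the difference of Hgd was -0.37 (adjusted p = 0.0522). Hpd and Fah, which act before and at the end of the route, differed by -0.12 ± 0.15 and -0.01 ± 0.09 and were not called.

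In the tryptophan route at 8 weeks the first enzyme was called higher, and of the 5 later members 1 was called lower. Tdo2, which opens the indole ring, was at 492, 374, 435, 458 and 567 TPM in Con at 8 weeks. In CAC it ran from 380.3 to 1444 TPM with a median of 733. CAC replicates 1 and 6, at 1376 and 1444 TPM, stood far above the rest, and 3 CAC livers lay within the Con range. The increase was 0.64 ± 0.22 (limma, adjusted p = 0.016). It was no longer called without CAC replicate 1 or 6 (largest adjusted p 0.0703) or without the libraries holding pancreas or muscle transcripts (0.54, adjusted p = 0.111). The call was also lost with the 20 highest genes removed (0.47, adjusted p = 0.0583), in a fit within the week (adjusted p = 0.0953) and with the replicate number as a block (0.43, adjusted p = 0.112). Against NCAC the difference of Tdo2 was 0.50 ± 0.22 (adjusted p = 0.0555).

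Of the enzymes after Tdo2, Haao, which makes the quinolinate precursor, fell by 0.37 ± 0.14 (adjusted p = 0.0291), and this call was lost after rescaling (-0.12, adjusted p = 0.555), without the 12 libraries (-0.32, adjusted p = 0.13) and without any 1 of 5 libraries, Con replicate 2 or 3 and CAC replicate 1, 2 or 6 (largest adjusted p 0.1). Afmid, the formamidase, was lower at 6 weeks by 0.70 ± 0.15 (limma, adjusted p = 0.000975), where the 5 CAC livers at 35.0, 45.6, 49.3, 44.1 and 62.2 TPM all lay under the lowest Con liver at 62.7 TPM. Without the 12 libraries the difference of Afmid at 6 weeks was -0.53 (adjusted p = 0.089). At 8 weeks its difference of -0.32 ± 0.14 was not called. Kynu and Kmo were not called as deposited, at -0.25 ± 0.17 and 0.07 ± 0.12, and after rescaling Kmo was called higher (0.32, adjusted p = 0.022). Acmsd, which diverts the pathway away from NAD synthesis, was not called at 8 weeks either (0.54 ± 0.32, adjusted p = 0.182). It was at 7.09 to 28.4 TPM in CAC and 7.54 to 11.6 TPM in Con. Against NCAC at 8 weeks Haao was not called as deposited (-0.29, limma, adjusted p = 0.0827). Afmid was called lower than NCAC (-0.55, adjusted p = 0.0013), a call lost after rescaling (-0.25, adjusted p = 0.204).

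In the histidine route 1 of 4 members was called in CAC against Con at 8 weeks as deposited. It was called lower, as were 35.3% of all genes. Amdhd1, the imidazolonepropionase that acts after Hal and Uroc1, was at 251, 256, 268, 226 and 140.2 TPM in Con at 8 weeks and between 67.2 and 253 TPM in CAC, median 102. Con replicate 5 was low, CAC replicate 3 was as high as Con, and the other CAC livers lay at or under 113 TPM. The decrease was -1.09 ± 0.27 (limma, adjusted p = 0.000976), and against NCAC it was -0.91 ± 0.27 (adjusted p = 0.00441). After rescaling the difference from NCAC was not called (-0.61, adjusted p = 0.0682), and that from Con was not called when the 12 libraries were also left out (-0.74, adjusted p = 0.0632). Con libraries at 4 and 6 weeks had Amdhd1 between 114 and 304 TPM and between 126 and 224 TPM, where their Nr1d1 was also spread from 6.89 to 82.1 and from 5.17 to 31.2 TPM. With 2 clock scores in the fit the difference at 8 weeks was -0.34 (adjusted p = 0.0604).

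Hal, the histidine ammonia-lyase that opens the route, and Amdhd1 are neighbours on chromosome 10, at 93488768 to 93519304 and 93523338 to 93540033. Between livers of the same group they varied together (r = 0.636, rho = 0.688, permutation p = 1e-05 for each, adjusted p = 0.000158 and 0.00021), while their differences from Con at 8 weeks had opposite signs. Hal differed by 0.25 ± 0.18 as deposited (adjusted p = 0.278) and by 0.50 after rescaling (adjusted p = 0.0406). Uroc1 and Ftcd, the urocanase and the formiminotransferase, differed by -0.07 ± 0.11 and -0.17 ± 0.11 and were not called against Con. Against NCAC both were called lower as deposited, where 43.1% of all genes were. Uroc1 was at -0.34 (limma, adjusted p = 0.00839) and Ftcd at -0.29 (adjusted p = 0.0245). After rescaling neither was called against NCAC (-0.04, adjusted p = 0.831, and 0.02, adjusted p = 0.917).

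In proline and ornithine breakdown the first enzyme rose against Con and the enzymes that share its product fell. Prodh, proline dehydrogenase, was at 65.3, 65.5, 89.5, 75.4 and 88.1 TPM in Con and between 94.8 and 148 TPM in CAC at 8 weeks, median 108. The ranges did not overlap, and the increase was 0.56 ± 0.15 (limma, adjusted p = 0.00328). NCAC livers, at 113, 109, 161, 113 and 97.8 TPM, also lay above every Con liver, and CAC and NCAC differed by -0.06 ± 0.15 (adjusted p = 0.783, 95% interval -0.37 to 0.26). In Con itself Prodh fell between 2 weeks, when it lay between 106 and 162 TPM, and 8 weeks (-0.70 ± 0.17, limma, adjusted p = 0.0399). This call was lost after rescaling (-0.75, adjusted p = 0.0552), without the 12 libraries (-0.63, adjusted p = 0.429) and without any 1 of 6 libraries, Con replicates 2 to 5 of 2 weeks and 2 and 4 of 8 weeks (largest adjusted p 0.191). Prodh overlaps the gene Dgcr6 on the opposite strand, and the sources used here do not say whether reads were counted by strand.

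Aldh4a1, which oxidises the aldehyde that Prodh and Oat both feed, was at 172, 144, 205, 188 and 163 TPM in Con and between 79.8 and 151 TPM in CAC, median 111. CAC replicate 3 reached the Con range and the other 6 CAC livers lay beneath it. The decrease was -0.67 ± 0.15 (limma, adjusted p = 0.000277), and after rescaling -0.42 (adjusted p = 0.0143). Its locus overlaps the gene model Gm21969 on the same strand.

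Oat, ornithine aminotransferase, was at 864, 719, 1016, 829.8 and 565 TPM in Con and between 179 and 769.5 TPM in CAC at 8 weeks, median 424. CAC replicates 2, 3 and 7 lay within the Con range. The difference was -0.82 ± 0.30 (limma, adjusted p = 0.0264). It was not called after rescaling (-0.56, adjusted p = 0.151), without the libraries with pancreas or muscle transcripts (-0.83, adjusted p = 0.0676), or without Con replicate 1, 3 or 4 or CAC replicate 4 (largest adjusted p 0.099). With the 2 clock scores it was -0.59 (adjusted p = 0.161).

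**Figure D3:**
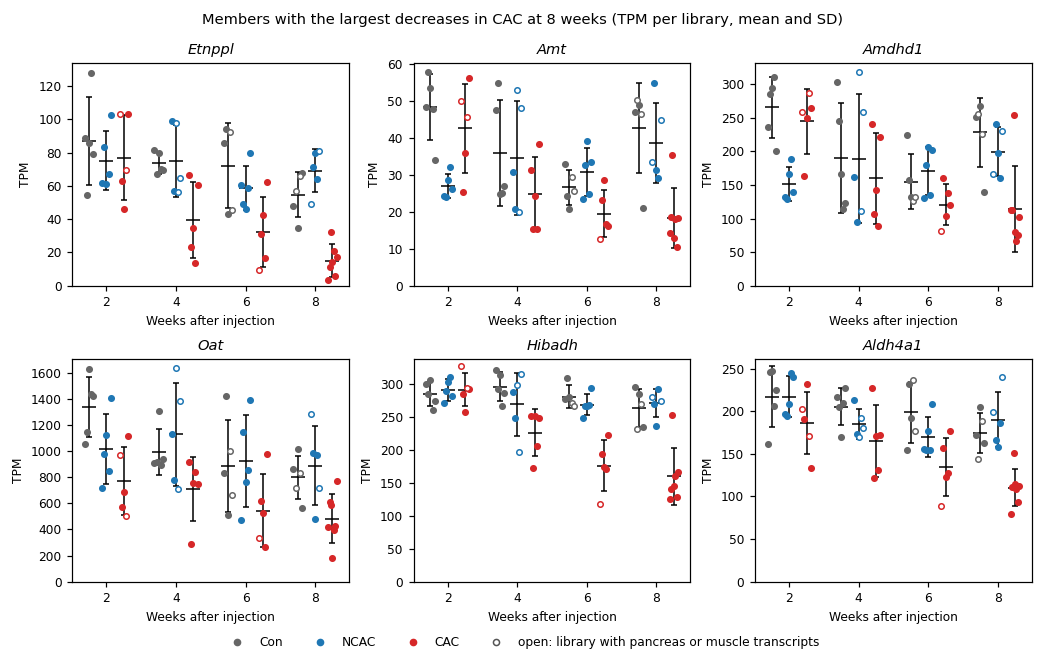
TPM of Etnppl, Amt, Amdhd1, Oat, Hibadh and Aldh4a1 in each of the 62 libraries by week and arm, with the mean and SD of each group. Open points are libraries with pancreas or muscle transcripts. The CAC points at 8 weeks lie mostly beneath Con and NCAC, and 1 CAC liver, replicate 3, stays near them for Amt, Amdhd1 and Hibadh.

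The serine dehydratases were the members called higher at both 6 and 8 weeks. Sds, which turns serine into pyruvate, was at 225, 236, 160.1, 196 and 122 TPM in Con at 6 weeks and at 494, 374, 256, 368 and 496 TPM in CAC. Every CAC liver lay above every Con liver. The increase at 6 weeks was 1.08 ± 0.30 (limma, adjusted p = 0.0102). Without the libraries holding pancreas or muscle transcripts, which include CAC replicate 1 and Con replicates 4 and 5 of that week, it was 0.83 (adjusted p = 0.145).

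At 8 weeks Sds was at 128, 161, 165, 171 and 271 TPM in Con, at 192, 227, 380.3, 237 and 225 TPM in NCAC and between 265 and 888 TPM in CAC, median 416. CAC replicates 1 and 6 were the highest, and CAC replicate 5 lay within the Con range. The increase over Con was 1.37 ± 0.28 (limma, adjusted p = 9.43e-05) and over NCAC 0.87 ± 0.28 (adjusted p = 0.00805). Without the libraries with pancreas or muscle transcripts the increase over Con was 1.33 (adjusted p = 0.00147), and that over NCAC was not called (0.72, adjusted p = 0.0768).

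Sdsl, the related serine dehydratase-like gene, was at 14.2, 10.3, 10.5, 12.1 and 8.15 TPM in Con and at 33.3, 27.9, 29.6, 22.5 and 23.3 TPM in CAC at 6 weeks, with no overlap. This increase was 1.24 ± 0.23 (limma, adjusted p = 0.000106). At 8 weeks Con livers held 12.9, 18.1, 10.4, 12.3 and 12 TPM, and CAC ran from 16.3 to 52.8 TPM with a median of 21.4. CAC replicates 1 and 6, at 45.1 and 52.8 TPM, were again the highest, and the others lay between 16.3 and 21.8 TPM. The increase at 8 weeks was 0.92 ± 0.21 (adjusted p = 0.000561). Sds and Sdsl lie back to back on chromosome 5 (120476526 to 120483932 on the plus strand and 120458186 to 120472810 on the minus strand) with 3715 bases between them. Plbd2 overlaps Sds on the opposite strand.

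Of the 2 aspartate aminotransferases 1 was called higher and 1 lower as deposited, and neither call held under every setting. Got1, the cytosolic aspartate aminotransferase, was at 125, 131, 172, 153 and 163 TPM in Con and between 79.0 and 815 TPM in CAC at 8 weeks, median 224. The CAC livers spanned the Con range, with replicates 1 and 6 at 815 and 726 TPM and replicate 4 at 79.0. The difference of 0.85 ± 0.35 was at the edge of the call (limma, adjusted p = 0.0472) and was lost without any 1 of 8 libraries, all 5 of Con and CAC replicates 1, 2 and 6 (lowest value 0.58, largest adjusted p 0.177). Without the libraries with pancreas or muscle transcripts it was 0.81 (adjusted p = 0.134). It was not called either with no filter (adjusted p = 0.0703), with the 20 highest genes removed (0.68, adjusted p = 0.0861), within the week (adjusted p = 0.154), with the replicate block (0.65, adjusted p = 0.166) or with 2 clock scores (0.89, adjusted p = 0.0723). Against NCAC it was 0.11 ± 0.35, with a 95% interval of -0.60 to 0.82.

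Got2, the mitochondrial form, was at 373, 349, 379.8, 371 and 329.6 TPM in Con and between 259.6 and 324 TPM in CAC, with no overlap. It fell by 0.32 ± 0.07 (limma, adjusted p = 0.000262), and after rescaling the difference was -0.06 (adjusted p = 0.403). Gpt and Gpt2, the alanine aminotransferases, differed by 0.18 ± 0.14 and 0.32 ± 0.27 and were not called as deposited. After rescaling Gpt was called higher (0.43, adjusted p = 0.0312). Glud1, glutamate dehydrogenase, differed by -0.06 ± 0.09.

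**Figure D4:**
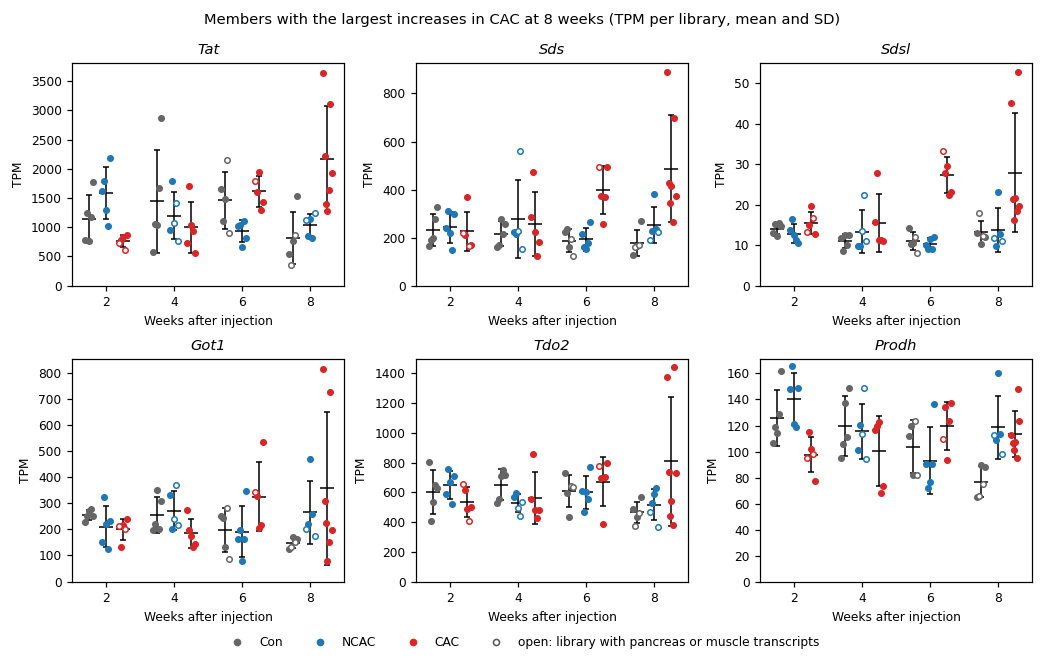
TPM of Tat, Sds, Sdsl, Got1, Tdo2 and Prodh in each of the 62 libraries by week and arm, with the mean and SD of each group. Open points are libraries with pancreas or muscle transcripts. CAC points at 8 weeks lie above most Con points, Sds and Sdsl are already apart from Con at 6 weeks, and CAC replicates 1 and 6 form the upper end for Sds, Sdsl, Got1 and Tdo2.

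In glycine breakdown the 3 subunits of the cleavage system measured here did not change alike. Amt, the aminomethyltransferase subunit, was at 47.0, 50.2, 48.7, 46.4 and 20.9 TPM in Con, at 33.3, 54.8, 31.4, 29.0 and 44.6 TPM in NCAC and between 10.5 and 35.4 TPM in CAC at 8 weeks, median 18.1. Con replicate 5 and CAC replicate 3 crossed to the level of the other arm. The decrease from Con was -1.20 ± 0.26 (limma, adjusted p = 0.000186) and from NCAC -1.09 ± 0.26 (adjusted p = 0.00054). Gcsh, the lipoyl carrier subunit, fell by 0.40 ± 0.11 against Con (adjusted p = 0.00397), or -0.15 after rescaling (adjusted p = 0.331). All 5 NCAC livers, at 130.5 to 143.6 TPM, also lay below every Con liver, at 149.7 to 177.5 TPM. Against NCAC Gcsh in CAC was not called as deposited (-0.15, limma, adjusted p = 0.256). Gldc, the decarboxylase subunit, differed from Con by -0.28 ± 0.27 and was not called.

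Amt differed between Con livers along with Nr1d1. At 4 weeks Con replicates 1 and 2 had 47.4 and 54.8 TPM of Amt and 82.1 and 79.6 TPM of Nr1d1, and replicates 3, 4 and 5 had 24.8, 24.9 and 26.8 TPM of Amt and 12, 7.17 and 6.89 TPM of Nr1d1. All 5 Con livers of 6 weeks, with Nr1d1 at 31.2 TPM or less, had 20.8 to 32.9 TPM of Amt. At 8 weeks Con replicate 5, with 13.7 TPM of Nr1d1, had 20.9 TPM of Amt, and CAC replicate 3, with 51.4 TPM of Nr1d1, had the highest Amt of its group. With 2 clock scores in the fit the decrease of Amt at 8 weeks was -0.62 (limma, adjusted p = 0.00823) against Con and -0.81 (adjusted p = 0.00041) against NCAC. The clock scores were not centred by group, and clock gene levels differed between arms at 8 weeks. Fits with these scores therefore cannot tell the clock from the arm. The labels give no hour of collection, and the part of the clock in these results was not tested.

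The remaining single routes were mixed. Aass, which opens lysine breakdown, was at 132, 84.8, 137, 131 and 194 TPM in Con and between 139 and 284 TPM in CAC at 8 weeks, median 169. Con replicate 5 lay within the CAC range and the other Con livers beneath it. Aass rose by 0.47 ± 0.18 (limma, adjusted p = 0.0288) against Con and differed by 0.15 ± 0.18 (adjusted p = 0.493) against NCAC. The call against Con was lost without the 12 libraries (0.26, adjusted p = 0.297), with the 20 highest genes removed (0.30, adjusted p = 0.145), within the week (adjusted p = 0.076), with the replicate block (0.36, adjusted p = 0.122) and with 2 clock scores (0.27, adjusted p = 0.268). It was also lost without Con replicate 2 or 4 or CAC replicate 1 or 6 (largest adjusted p 0.156). Cdo1 and Csad, which lead cysteine toward taurine, differed by 0.35 ± 0.20 and -0.50 ± 0.37 and were not called as deposited. After rescaling Cdo1 was called higher (0.60, adjusted p = 0.03).

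Of the 12 branched-chain members 7 were called lower at 6 weeks, where 10.3% of all genes were, and 8 at 8 weeks, where 35.3% were, and none was called higher. Without the 12 libraries with pancreas or muscle transcripts the counts were 4 and 8. Hibadh, which oxidises 3-hydroxyisobutyrate in the valine branch, had the smallest adjusted p of all members at 8 weeks. It was at 294, 232, 284, 269 and 235 TPM in Con, at 279, 269, 235, 292 and 274 TPM in NCAC and between 126 and 252 TPM in CAC, median 145. CAC replicate 3, at 252 TPM, was the only CAC liver above 167 TPM and the only one inside the Con range. The decrease was -0.75 ± 0.12 (adjusted p = 2.85e-06) against Con and -0.79 ± 0.12 (adjusted p = 8.37e-07) against NCAC, both by limma, and -0.50 against Con after rescaling (adjusted p = 0.000143).

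The fall of Hibadh was already present at 6 weeks, at -0.70 ± 0.13 (limma, adjusted p = 9.51e-05). Con livers held 276, 309, 279.9, 270.0 and 266 TPM then and CAC livers 117, 194, 174, 171 and 222 TPM, with no overlap. Acadsb, the dehydrogenase of the isoleucine branch, was at 37.1, 42.2, 37.4, 37.9 and 39.3 TPM in Con and at 19.2, 23.6, 21.8, 21.7 and 32.1 TPM in CAC at 6 weeks. These ranges did not overlap either, and the decrease was -0.71 ± 0.14 (limma, adjusted p = 0.000175). At 8 weeks Acadsb fell by 0.36 ± 0.13 as deposited (adjusted p = 0.0178). It was not called then after rescaling (-0.12, adjusted p = 0.396) or without Con replicate 1 or 5 (largest adjusted p 0.0702). Fgfr2, in the annotation used, overlaps both Acadsb and Oat on the chromosome 7 minus strand.

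Pcca, the biotin-carrying subunit of propionyl-CoA carboxylase, onto which the valine and isoleucine branches converge, was the earliest member called in the fit over all weeks. At 2 weeks it was not called in that fit (-0.27 ± 0.14, adjusted p = 0.49) but was in the limma fit within the week (adjusted p = 0.0276). The CAC livers, at 24 to 30.4 TPM, lay below the Con livers at 31.2 to 34.1 TPM. At 4 weeks Pcca was at 34.2, 30.8, 30.0, 31.5 and 31.9 TPM in Con and at 27.5, 12.6, 24.7, 21.4 and 26.7 TPM in CAC, with no overlap. The decrease of -0.52 ± 0.14 had a limma adjusted p of 0.0364 and was not called when any 1 of 7 libraries was left out, all 5 of Con and CAC replicates 2 and 4 (largest adjusted p 0.359). The 4-week call was also lost with no filter (adjusted p = 0.0602) and within the week (adjusted p = 0.413). The difference of Pcca was -0.63 ± 0.14 at 6 weeks (adjusted p = 0.00132) and -0.58 ± 0.13 at 8 weeks (adjusted p = 0.000411). Pccb, the partner subunit, fell by 0.42 ± 0.14 against Con at 8 weeks (adjusted p = 0.0123). This call was lost after rescaling (-0.17, adjusted p = 0.354) and without Con replicate 3 (adjusted p = 0.0561). Against NCAC Pccb was not called at 8 weeks as deposited (-0.29, limma, adjusted p = 0.0791).

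Within the keto acid dehydrogenase complex the subunits differed. Bckdha, the catalytic subunit, fell by 0.49 ± 0.12 at 8 weeks (limma, adjusted p = 0.000919), a call lost after rescaling (-0.24, adjusted p = 0.123), while Bckdhb and Dbt of the same complex differed by -0.05 ± 0.07 and 0.01 ± 0.18. At 6 weeks the order was another one, with Dbt called lower (-0.66 ± 0.20, adjusted p = 0.0162; 0.0842 without CAC replicate 1) and Bckdha at -0.03 ± 0.13. In the leucine branch Ivd, Mccc1 and Mccc2 fell by 0.31, 0.35 and 0.21 at 8 weeks. After rescaling none of these 3 was called, at -0.06 (adjusted p = 0.614), -0.13 (adjusted p = 0.268) and 0.04 (adjusted p = 0.747), and Mccc2 thereby changed sign. Mccc2 was also not called without the 12 libraries (-0.23, adjusted p = 0.056) or without any 1 of 8 libraries, Con replicates 1, 3 and 4 and CAC replicates 1, 2, 4, 5 and 6 (largest adjusted p 0.164). Hibch and Bcat2 were not called at 8 weeks against Con, at -0.32 ± 0.14 and -0.35 ± 0.21. Against NCAC both were called lower, at -0.33 (limma, adjusted p = 0.0394) and -0.79 (adjusted p = 0.00202). These calls against NCAC were lost after rescaling (-0.03, adjusted p = 0.883, and -0.50, adjusted p = 0.077). After rescaling, 2 of the 12 branched-chain members were called lower than Con at 8 weeks, Hibadh and Pcca, where 13.9% of all genes were. At 6 weeks 5 were called lower (5.82% of all genes lower). The summed TPM of the 12 had medians of 1020 in Con, 1080 in NCAC and 725 in CAC at 8 weeks.

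The largest difference of any member was that of Etnppl, which breaks down phosphoethanolamine and is related in sequence to aminotransferases. It was at 48.1, 57.0, 34.8, 66.2 and 67.8 TPM in Con, at 49.3, 71.5, 79.7, 64.3 and 81.2 TPM in NCAC and between 3.25 and 32.5 TPM in CAC at 8 weeks, median 14.4. No CAC liver reached the Con or the NCAC range. Etnppl fell by 2.03 ± 0.35 against Con (limma, adjusted p = 1.09e-05) and by 2.38 ± 0.35 against NCAC (adjusted p = 5.37e-07). The lowest values were in CAC replicates 1 and 6, at 3.25 and 5.87 TPM, the livers highest in Sds, Sdsl, Got1 and Tdo2.

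At 6 weeks Etnppl was at 85.6, 94.1, 43.2, 92.3 and 45.6 TPM in Con and at 9.59, 31.1, 42.6, 16.5 and 62.4 TPM in CAC. CAC replicate 5 overlapped Con. The decrease of -1.32 ± 0.38 (limma, adjusted p = 0.0142) was not called without CAC replicate 1 (-0.97, adjusted p = 0.106) or without the libraries with pancreas or muscle transcripts (-1.02, adjusted p = 0.174). At 4 weeks the difference of Etnppl was -1.09 ± 0.38 (adjusted p = 0.141).

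Within CAC at 8 weeks the livers were unlike each other. Replicate 3 was the highest of the 7 for 20 of the 43 members and replicate 6 for 10, replicate 5 was the lowest for 14 and replicate 4 for 11. Replicate 3 also had 9777 TPM of the 5 summed erythroid markers and 391.6 TPM of the 6 Kupffer cell markers, where the other 6 CAC livers had 38.6 to 2256 and 91.3 to 215.5 TPM. The part of these cells in the results was not tested. Without replicate 3, Hibadh, Aldh4a1, Amt, Amdhd1 and Etnppl were still called.

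As a linear trend over the 4 weeks, the difference of CAC from Con increased for 7 members and decreased for 2 (3.35% and 12.3% of all genes). Per 2 weeks it increased by 0.66 ± 0.14 for Tat, 0.52 ± 0.13 for Sds, 0.49 ± 0.16 for Got1 and 0.44 ± 0.15 for Acmsd. Sdsl, Prodh and Aass followed with 0.33, 0.32 and 0.23. It decreased by 0.57 ± 0.16 for Etnppl and 0.26 ± 0.06 for Hibadh. Without the libraries with pancreas or muscle transcripts 2 increasing trends (Tat and Prodh) and 1 decreasing trend (Hibadh) were called. The trend of Aass was lost without any 1 of 29 of the 42 libraries, and that of Acmsd without any 1 of 12. The increasing count was 4 without CAC replicate 2 of 2 weeks, Con replicate 1 of 8 weeks or CAC replicate 1 or 6 of 8 weeks. The decreasing count was 6 without Con replicate 5 and 7 without CAC replicate 3 of 8 weeks. The trend of NCAC minus Con gave 0 members in limma (0% of all genes, 4 higher at an unadjusted p under 0.05).

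Con livers themselves were not constant. Beside Prodh, Uroc1 fell between 2 and 8 weeks (-0.50 ± 0.12, limma, adjusted p = 0.0369), where 0.296% of all genes were called. Uroc1 was not called without the 12 libraries (-0.39, adjusted p = 0.45) or without any 1 of 7 libraries, Con replicates 2 to 5 of 2 weeks and 2, 4 and 5 of 8 weeks (largest adjusted p 0.265). At an unadjusted p under 0.05 there were 18 members lower and 1 higher at 8 weeks, with the share of all genes not counted. The Con medians of Nr1d1 were 74.4, 12, 13.8 and 70.2 TPM at 2, 4, 6 and 8 weeks.

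Other genes of amino acid breakdown that are not among the 43 were counted in the same fit. Of 41 listed, 37 were tested. In CAC against Con at 8 weeks 1 of these rose and 22 fell, where 5.87% of all genes were called higher and 35.3% lower, with a median of -0.35 against -0.21 for all genes. After rescaling 4 were higher and 9 lower, against 12.8% and 13.9% of all genes, with a median of -0.10. Hsd17b10, a dehydrogenase of the isoleucine branch, was the one that rose, by 0.35 ± 0.11 (limma, adjusted p = 0.00904). The largest decreases were those of Ddc, the aromatic amino acid decarboxylase (-1.47 ± 0.32, adjusted p = 0.000289), and Gcat of threonine and glycine breakdown (-0.82 ± 0.17, adjusted p = 0.000143). Bckdk, the kinase that inhibits the branched-chain dehydrogenase, fell by 0.62 ± 0.14 (adjusted p = 0.000332) and was named after its values were seen.

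Of 10 listed regulators of these routes, 2 were called higher and 3 lower at 8 weeks, where 5.87% of all genes were called higher and 35.3% lower. These 5, named after their values were seen, were Foxo1 (0.63 ± 0.21, limma, adjusted p = 0.015) and Ppargc1a (0.61 ± 0.24, adjusted p = 0.0334) upward and Cebpa (-1.12 ± 0.22, adjusted p = 5.94e-05), Creb3l3 (-0.53 ± 0.12, adjusted p = 0.000616) and Gcgr (-0.47 ± 0.13, adjusted p = 0.00354) downward. Without the 12 libraries 0 were called higher and 4 lower, and after rescaling Creb3l3 and Gcgr were not called (-0.28, adjusted p = 0.0732, and -0.22, adjusted p = 0.154). The glucocorticoid receptor gene Nr3c1 differed by -0.24 ± 0.16 (limma, adjusted p = 0.236), Klf15 by 0.22 ± 0.17 (0.304), Cebpb by 0.49 ± 0.29 (0.169) and Hnf4a by 0.30 ± 0.15 (0.0948). After rescaling Klf15 and Hnf4a were called higher, at 0.47 (adjusted p = 0.0292) and 0.55 (adjusted p = 0.00359). Of 10 amino acid carriers 2 were called higher and 1 lower as deposited, and 4 and 0 after rescaling, where 12.8% and 13.9% of all genes were. Slc38a2, the neutral amino acid carrier SNAT2, rose by 0.90 ± 0.24 (adjusted p = 0.0026) and was named after its value was seen.

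Members also varied together between livers of the same group. Over the 62 libraries, as deviations from the group means, 22 of the 903 member pairs had Pearson's r above 0.7 and 11 below -0.5, with a median of 0.194. P-values are from 100000 permutations within groups, whose smallest value is 1e-05, with Benjamini-Hochberg adjustment over 903 pairs. The highest r was that of Amdhd1 and Amt, at 0.856. The positive pairs described next are examples and not a ranking. Hgd and Kynu, of the tyrosine and tryptophan routes, had r = 0.827 and rho = 0.818 (p = 1e-05 for each, the smallest possible; adjusted p = 0.000158 and 0.00021), and 0.826 without the 2 libraries farthest from the median of Hgd. By arm r was 0.754 in Con, 0.878 in NCAC and 0.855 in CAC.

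Hibadh and Pcca, both of the branched-chain route, had r = 0.822 and rho = 0.792 (permutation p = 1e-05 for each; adjusted p = 0.000158 and 0.00021), with 0.813 without the 2 farthest libraries and 0.695, 0.932 and 0.811 in Con, NCAC and CAC. Prodh and Sds, first enzymes of different routes, had r = 0.752 and rho = 0.799 (permutation p = 1e-05 for each; adjusted p = 0.000158 and 0.00021), with 0.732 without the 2 farthest and 0.85, 0.826 and 0.656 by arm. The most negative pair was Hibadh and Sdsl, with r = -0.598 and rho = -0.388 (permutation p = 2e-05 and 0.00572; adjusted p = 0.000244 and 0.0211), -0.585 without the 2 farthest and -0.242, -0.584 and -0.673 by arm. Transcripts of the same liver share its cell composition and hour of collection. The labels name no batch.

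**Figure D5:**
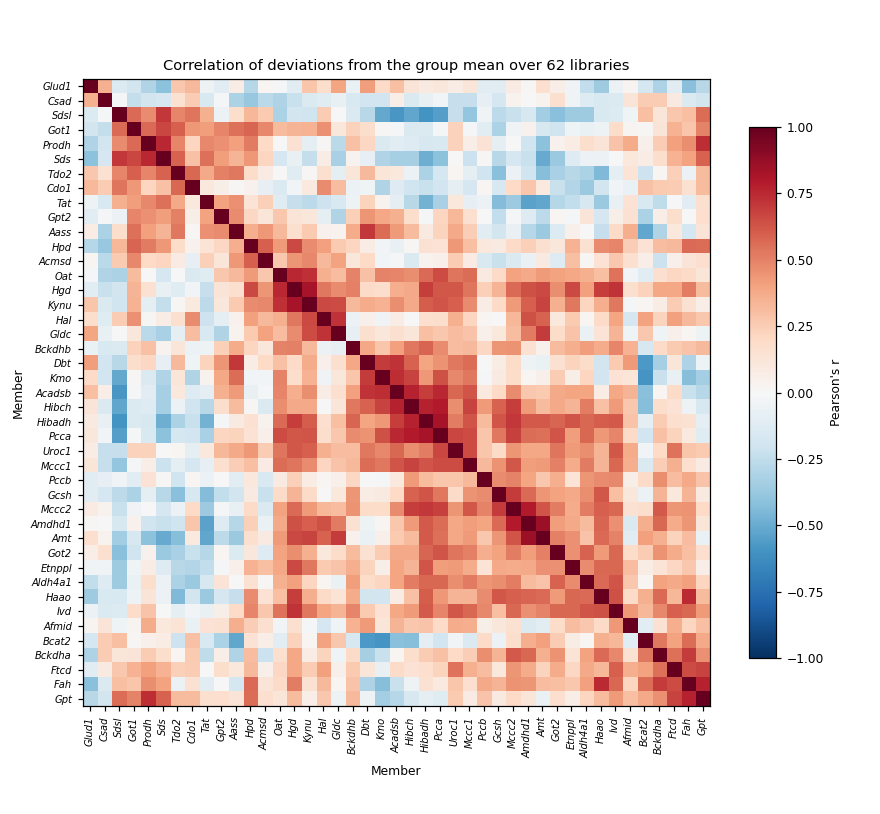
Pearson's r between the deviations of the 43 members from their group means over 62 libraries, with members ordered by similarity. A block of branched-chain members around Hibadh, Pcca, Hibch and Acadsb is positive within itself and negative toward Sdsl, and Sds, Sdsl, Got1 and Prodh form another positive block.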

How the data were processed

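Per the labels' protocols, liver RNA was extracted with Trizol, stranded TruSeq mRNA libraries were prepared, and these were run on an Illumina NovaSeq. The authors deposited 1 table of TPM for 47643 symbols in 62 libraries. The genome build is mm10, per the submitters' processing notes. The sources used here name no aligner, quantifier or depth, so counting error is unknown and no count model was used. Columns were matched to groups by name, with 0 left unmapped.

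The 12160 genes reaching 1 TPM in 5 or more libraries were fitted as log2(TPM + 1), pseudocount 1, with limma 3.58.1 in R 4.3.3: 12 group means over 62 libraries, empirical Bayes with trend, and Benjamini-Hochberg adjustment within each of 15 comparisons. Fold changes on this scale understate the change of low genes. The p-values measure the spread between these libraries. Trends used weights of -3, -1, 1 and 3 and are given per 2 weeks. Other scalings, filters, covariates and left-out libraries are in the closing section. The clock scores are the 2 leading principal components of 14 clock genes. On simulated data of 12160 genes in the 8-week layout, 64% of changed genes were called at a log2 size of 0.5. The share was 88% at 1, 96% at 2 and 100% at 3, and 3.33% of calls were false. In the 6-week layout the shares were 64%, 88%, 98% and 100%, and 6.42% of calls were false. Each size had 50 changed genes. Whether these shares hold for the deposited values was not tested.

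The list of members sets no threshold on measured values, but it and the other lists were chosen with earlier results of these data known. Values per library are given for Tat and Sds, for the 6 largest called increases and 6 largest called decreases in CAC minus Con at 8 weeks whose sign held with any 1 library left out, for the 2 largest each way at 4 and 6 weeks and for the 2 largest in CAC minus NCAC at 8 weeks. Some other members were given values to show their overlap. Other genes were named as the 2 largest each way and 4 regulators, and others where the text says so. Loci are from GENCODE on GRCm38, and windows from RefSeq. Figures and windows used Python 3.11.15, NumPy 2.4.6, pandas 2.3.3 and matplotlib 3.10.9.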

Additional observations from a re-analysis of the deposited data

Results flagged for a closer look

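In groups of 4 to 10 libraries, a gap between the highest or lowest library and the next that took up most of the group's range (Dixon's test at 95%) was found in 10 of 84 groups tested over 14 members. Chance alone gives about 1 in 20. NCAC replicate 3 at 8 weeks stood above its group for Sds (380 TPM, next 237), Sdsl (23.1 TPM, next 12.7), Got1 (471 TPM, next 258) and Prodh (161 TPM, next 113). CAC replicate 3 at 8 weeks stood above the other CAC livers for Amt (35.4 TPM, next 18.5), Amdhd1 (253 TPM, next 113), Hibadh (252 TPM, next 167) and Pcca (29.3 TPM, next 19). Con replicate 5 at 8 weeks was low for Amt (20.9 TPM, next 46.4), and CAC replicate 3 at 6 weeks was low for Tdo2 (387 TPM, next 694).

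The difference of CAC from Con moved over the weeks, by the trend term of the limma fit, for 9 members. Per 2 weeks these were Tat (0.66, adjusted p = 0.000674), Sds (0.52, adjusted p = 0.00378), Got1 (0.49, adjusted p = 0.0338) and Acmsd (0.44, adjusted p = 0.0401) upward. Sdsl (0.33, adjusted p = 0.0178), Prodh (0.32, adjusted p = 0.00136) and Aass (0.23, adjusted p = 0.049) were also upward. Etnppl (-0.57, adjusted p = 0.0126) and Hibadh (-0.26, adjusted p = 0.000865) were downward. Whether these trends differ from those of NCAC minus Con was not tested.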

How the results depend on the processing

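The counts of called members were recomputed with a pseudocount of 0.1, no filter, a mean of at least 5 TPM, median-of-ratios rescaling, the 20 highest genes removed, a fit within each week, the replicate block, leaving out the 12 libraries with pancreas or muscle transcripts, 2 clock covariates centred by group, and each library left out. Added after seeing the data were rescaling without those 12 libraries and 2 clock scores not centred by group. No count and no member named by the rule changed direction. Of the other called members, Mccc2 (0.04 against Con and 0.03 against NCAC) and Ftcd (0.02 against NCAC) changed sign at 8 weeks with rescaling, and also with rescaling without the 12 libraries (0.04, 0.01 and 0.02). Of 205 counts under alternatives other than left-out libraries, 153 stayed within 1.5 times. At 8 weeks Tat, Sds, Sdsl, Prodh, Etnppl, Amt, Hibadh and Aldh4a1 against Con, and Etnppl and Amt against NCAC, kept their call under all 11 alternatives and with any 1 library left out.

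CAC against Con at 2 weeks gave 4 members with a fit within each week. At 4 weeks (1 member) the count was 0 with no filter or within the week, 2 with a mean of 5 TPM, rescaling, rescaling without the 12 libraries or clock scores, 3 without the 12 libraries or with clock covariates, and 4 with the 20 highest genes removed. At 6 weeks the 2 higher became 1 without the 12 libraries, rescaled or not, and the 11 lower became 17 with the 20 highest removed and 4 without the 12 libraries, rescaled or not. At 8 weeks the 7 higher became 11 with rescaling and 4 with the 20 highest removed, within the week, with the replicate block or without the 12 libraries. The 17 lower became 6 with rescaling, 5 with rescaling without the 12 libraries and 10 with clock scores.

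NCAC against Con gave 2 members at 2 weeks within the week or with clock covariates, and 1 at 8 weeks with clock covariates. CAC against NCAC gave 4 at 2 weeks within the week or with clock covariates. At 4 weeks it gave 1 with rescaling, the 20 highest removed or clock scores, and 2 with clock covariates. At 6 weeks the 7 became 20 with the 20 highest removed, 13 with clock covariates and 4 with rescaling without the 12 libraries. At 8 weeks the 3 higher became 7 with rescaling and 5 with clock scores, and the 19 lower became 8 with rescaling and 5 with rescaling without the 12 libraries. The 7 increasing trends became 4 with no filter or the replicate block, 2 without the 12 libraries and 3 with these also rescaled. The 2 decreasing trends became 10 with the 20 highest removed, 5 with clock covariates and 1 without the 12 libraries, rescaled or not. In Con at 8 against 2 weeks the 2 became 0 with a pseudocount of 0.1, a mean of 5 TPM or without the 12 libraries, rescaled or not, and 1 with the replicate block. Where a count moved, the cause was not tested beyond the fewer libraries or genes that an alternative holds.

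With single libraries left out, the count ranges were 0 to 3 for CAC against Con at 4 weeks, 2 to 2 higher and 4 to 12 lower at 6 weeks, and 4 to 8 higher (lowest without CAC replicate 1 or 6) and 13 to 19 lower at 8 weeks. They were 0 to 1 for NCAC against Con at 8 weeks (1 without Con replicate 3), and for CAC against NCAC 0 to 1 at 4 weeks, 4 to 12 at 6 weeks (without CAC replicate 1 or 5) and 3 to 5 higher (5 without CAC replicate 5) and 16 to 22 lower at 8 weeks. The trends had 4 to 8 increasing and 2 to 7 decreasing, and Con at 8 against 2 weeks 0 to 3.

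Replicate numbers did not pair the libraries. Over 330 same-numbered pairs the median correlation of deviations was -0.0085 (range -0.639 to 0.608, 75 over 0.1), against -0.00212 for other pairs, and 7 of 62 libraries correlated best with their own number. Depth is unknown, so low members such as Mccc1 and Sdsl carry an unknown counting error.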
